A study of Homo sapiens with 24 samples.

Results

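The core spliceosome genes are 52 genes, chosen from a list by name, that encode proteins of the U1, U2 and U4/U6.U5 particles, the Prp19 complex and the enzymes that act on them. All 52 of the listed genes were found among the 35580 genes of the deposited values, and all 52 passed the filter on low values in both experiments. For description they were grouped into 7 roles. These are 7 genes of the Sm ring, 3 of U1, 11 of U2, and 3 that read the branch point and 3′ splice site. A further 10 were grouped with the U4/U6.U5 tri-snRNP, PRPF38A among them, and are called tri-snRNP genes below. The rest are 12 of the Prp19 complex and its neighbours, and 6 helicases and second-step factors. The list was made with no measured value in its rule.

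The cells were A549, an established line from a human lung adenocarcinoma, labelled as wild type, and their polyA RNA was sequenced in 24 libraries of 2 experiments. Whole cells had received control siRNA, TAOK2 siRNA, the vehicle DMSO or compound 2, and each of these 4 groups has 1 library in each of batches A, B and C. For the fractionation, cells with either siRNA were split into total, nuclear and cytoplasmic samples, and each of these 6 groups has 1 library in each of batches 1 and 2. TAOK2 encodes a serine/threonine kinase, and the series title places it in nuclear speckles and in RNA processing. Both siRNAs were pools used at 30 nM. Compound 2 is known here by its code name alone and is labelled as an inhibitor of the TAOK2 kinase, and the labels give neither its dose nor its time. The titles of the whole-cell libraries all carry the word mock, which the labels do not explain. Nothing states that the libraries of a group came from separate cultures, so p-values measure the spread between these libraries.

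The spliceosome removes introns from pre-mRNA. U1 pairs with the 5′ splice site, SF1 and the U2AF proteins mark the branch point and the 3′ splice site, and U2 then takes the branch point over. The U4/U6.U5 tri-snRNP joins, helicases remodel the RNA contacts, and the Prp19 complex enters as the catalytic centre forms. The Sm proteins form the ring that sits on the RNA of the U1, U2, U4 and U5 particles, so they are shared by all of these particles.

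Values are TPM, the abundance of a transcript corrected for its length and scaled to the same total in every library, so the read depth behind each value is unknown, and when some RNAs take more of that total the rest take less. In bulk RNA, fewer cells with a transcript and less of it per cell cannot be told apart. TAOK2 stood at 40.3, 38.2 and 34.3 TPM with control siRNA and at 10.6, 12.5 and 8.56 TPM with TAOK2 siRNA in whole cells. It was lower with TAOK2 siRNA in each batch of each fraction, though not past the main limma test there. With batch as a replicate block in limma, TAOK2 passed in cytoplasmic RNA (adjusted p = 0.0118). It did not pass in total (adjusted p = 0.0506) or nuclear RNA (adjusted p = 0.119). With DMSO it stood at 39.7, 40.6 and 37.5 TPM and with compound 2 at 21.5, 30.7 and 20.5 TPM. The keratins KRT8 and KRT18 were at 1667 to 3558 TPM in whole cells, and the alveolar type II genes SFTPA1, SFTPA2, SFTPB, SFTPC and NKX2-1 were under 1 TPM in every whole-cell library. Summed over the 5 epithelial markers, TPM was 4449.6 to 4731 with control siRNA and 6323 to 6826 with TAOK2 siRNA, 3851 to 5957 with DMSO and 4012 to 6878 with compound 2, and its part in the results was not tested. Of the 7 alveolar type II markers 1 was above 1 TPM, ABCA3 at 14.3 to 30.0 TPM in whole cells. The 7 summed to 19.7 to 24.3 TPM with control siRNA and 28.2 to 31.2 TPM with TAOK2 siRNA. The experiments also differ in marker level, in both directions. KRT19 had a median of 114 TPM in whole cells and 0.283 TPM in the fractionation libraries. KRT8 had 2711 and 1326 TPM, and KRT18 3039 and 1379 TPM. EPCAM, at 8.40 and 54.9 TPM, and CDH1, at 12.8 and 58.1 TPM, were higher in the fractionation libraries. The tables are therefore never compared with each other by a test.

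Members that moved together can be looked at beside the sequence in front of them. The 150 bases before the start of 6 members are printed to show the windows of 3 Sm genes that rose with compound 2, 2 tri-snRNP genes that fell with it, and the U2 gene that fell most with TAOK2 siRNA. SNRPD2 has 3 windows, and the one printed holds all of its matches, while the other two hold none of these letters. The windows of SNRPD3, which also rose with compound 2, hold none of these letters and are not printed. The printed windows are therefore not a measure of how often the letters occur. They are RefSeq sequences of GRCh38.p14, and capitals mark matches on either strand to the letters CCGGAAG (an ETS factor core), CCAAT (the CCAAT box) or GGGCGG (the GC box).
SNRPB (chr20:2470790-2470939, minus strand): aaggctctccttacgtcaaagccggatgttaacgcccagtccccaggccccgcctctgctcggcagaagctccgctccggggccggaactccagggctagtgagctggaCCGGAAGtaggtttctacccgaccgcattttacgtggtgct
SNRPD2 (chr19:45692317-45692466, minus strand): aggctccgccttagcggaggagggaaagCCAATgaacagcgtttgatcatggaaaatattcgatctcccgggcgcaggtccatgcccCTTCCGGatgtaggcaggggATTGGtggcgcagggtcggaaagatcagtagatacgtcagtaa
SNRPF (chr12:95858802-95858951, plus strand): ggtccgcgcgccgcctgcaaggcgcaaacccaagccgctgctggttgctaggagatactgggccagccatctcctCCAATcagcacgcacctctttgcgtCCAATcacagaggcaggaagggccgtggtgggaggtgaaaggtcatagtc
SNRPA1 (chr15:101295249-101295398, minus strand): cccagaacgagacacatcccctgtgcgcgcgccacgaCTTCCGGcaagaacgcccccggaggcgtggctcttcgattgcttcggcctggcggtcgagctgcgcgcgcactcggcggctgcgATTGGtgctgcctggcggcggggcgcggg
SNRNP40 (chr1:31296789-31296938, minus strand): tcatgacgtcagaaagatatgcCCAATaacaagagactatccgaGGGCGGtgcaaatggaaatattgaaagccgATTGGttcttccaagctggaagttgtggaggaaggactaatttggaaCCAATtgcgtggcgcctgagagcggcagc
PRPF4 (chr9:113275508-113275657, plus strand): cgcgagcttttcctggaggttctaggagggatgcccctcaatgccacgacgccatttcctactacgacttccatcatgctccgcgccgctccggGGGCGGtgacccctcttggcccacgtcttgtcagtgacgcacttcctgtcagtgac
RefSeq entries were matched for 49 of the 52 members, with 58 windows because some genes have several starts. CCGGAAG or its reverse complement was present in 25 of 58 windows (43.1%), against 6.85% of 35116 windows of all genes and 11.4% of 14462 windows of genes tested in whole cells. By role, it was in 8 of 11 windows of U2 genes, 4 of 11 of the Sm ring and 3 of 10 of the tri-snRNP. CCAAT was in 29.3% of the member windows against 25% of those of tested genes. GGGCGG was in 41.4% against 56.2%, and in 0 of 11 windows of the Sm ring. A match is a description of letters, and some windows of the same gene overlap.

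Among the controls of the whole-cell experiment, pooled over control siRNA and DMSO, the members spanned from 948 TPM for SNRPB to 15.8 TPM for CDC40, leaving out U2AF1. The Sm ring had a median of 156 TPM over its 7 genes, U1 168, U2 127, the tri-snRNP 69.7, the helicases and second-step factors 52.7, and the Prp19 complex and related genes 34.4. Within the Prp19 group, PRPF19 itself, a ubiquitin ligase, stood at 141 TPM and CDC5L, its partner in the core, at 22.4 TPM. U2AF1, which reads the AG at the 3′ splice site, was listed at 3.11 TPM, while U2AF1L5, a near-identical copy, took most of the signal. Summed, the pair stood at 189, 187 and 163 TPM with control siRNA, so values of U2AF1 alone are uncertain and the sum is given beside them.

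With TAOK2 siRNA in whole cells, 15 of the 52 members fell and 0 rose. All 3 U1 genes fell, and the largest falls were in SNRPA1 of U2, in SNRNP70 of U1, in BUD31 of the activated spliceosome and in U2AF2. Most changes were small, with a median over the 52 members of -0.17 on the log2(TPM + 1) scale, against -0.05 over all genes tested. The test was limma on log2(TPM + 1), with p-values adjusted by Benjamini-Hochberg over all 13197 genes and called under 0.05. Differences are given on that scale, with ± for the moderated SE. In that test 22.4% of all genes were called, 14.5% lower and 7.85% higher.

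SNRPA1, whose protein binds U2 RNA together with SNRPB2, stood at 146, 144 and 149 TPM with control siRNA and at 95.2, 102 and 101 TPM with TAOK2 siRNA. The groups were apart, and SNRPA1 changed by -0.56 ± 0.0652, adjusted p = 0.00017, the largest change of the 52. Its partner SNRPB2 changed by -0.01 (adjusted p = 0.895). Of the branch-point complex, SF3B4, an RNA-binding subunit, went from 102, 99.7 and 99.2 TPM to 81.4, 80.2 and 79.6 TPM (-0.32 ± 0.0653, adjusted p = 0.00525). SF3B5, a small subunit of the same complex, fell less, from 150.0, 137 and 134 to 126, 123 and 122 TPM (-0.18 ± 0.0545, adjusted p = 0.0338). The other 8 genes of U2 did not pass, among them SF3B1, which contacts the branch-site helix, at 0.00.

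In U1 all 3 listed genes fell, and 2 of these calls (SNRNP70 and SNRPA) held after centring on the median gene. SNRNP70, whose protein binds the first stem-loop of U1 RNA, stood at 455, 407 and 365 TPM with control siRNA and 313, 304 and 280.1 TPM with TAOK2 siRNA (-0.45 ± 0.0754, adjusted p = 0.00172). SNRPA, which binds the second stem-loop, went from 168, 158 and 172 to 137, 129 and 138 TPM (-0.30 ± 0.0740, adjusted p = 0.0128). SNRPC, which steadies pairing with the 5′ splice site, went from 128, 128 and 129 to 112, 111 and 112 TPM (-0.20 ± 0.0495, adjusted p = 0.0133). In each of these genes the highest TAOK2 siRNA library lay below the lowest control library.

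U2AF2, which binds the polypyrimidine tract, stood at 364, 349 and 349 TPM with control siRNA and 269.8, 270.5 and 269 TPM with TAOK2 siRNA (-0.39 ± 0.0484, adjusted p = 0.000234). SF1, the branch-point reader, went from 188, 183 and 172 to 163, 159 and 149.8 TPM and did not pass (-0.20 ± 0.0768, adjusted p = 0.0834), although its groups did not overlap, and it did pass with batch as a replicate block (adjusted p = 0.0273). U2AF1 summed with U2AF1L5 showed overlapping groups at 0.01 ± 0.113 (adjusted p = 0.944).

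In the Sm ring SNRPG was the one gene of 7 that passed, from 200.03, 215 and 226 to 182, 187 and 180.2 TPM (-0.22 ± 0.0649, adjusted p = 0.0302). With batch as a replicate block 5 of 7 passed, SNRPB, SNRPD1, SNRPD3 and SNRPE besides SNRPG. In the fit without the block the other 6 lay between -0.19 for SNRPD1 and -0.06 for SNRPF. Of the tri-snRNP 3 of 10 fell. PRPF4, of the U4/U6 part, went from 53.6, 53.7 and 56.1 to 44.9, 44.6 and 46.4 TPM (-0.26). PRPF31, which bridges U4/U6 to U5 with PRPF6, went from 172, 170.1 and 172 to 144, 148 and 153 TPM (-0.21), and PRPF6 from 74.0, 71.7 and 65.1 to 62.5, 60.6 and 58.1 TPM (-0.21). The largest proteins of the particle, PRPF8 at its centre and the unwinding helicase SNRNP200, changed by -0.09 and -0.08 and did not pass.

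In the Prp19 group 3 of 12 fell. BUD31, a small zinc-binding protein of the activated spliceosome (chr7, GRCh38), stood at 122, 124 and 135 TPM with control siRNA and 96.1, 88.9 and 93.8 TPM with TAOK2 siRNA (-0.45 ± 0.0611, adjusted p = 0.00047). PLRG1 and PRPF19, both of the complex's core, changed by -0.30 and -0.24, with adjusted p = 0.0194 and 0.0298. CDC5L and BCAS2, the other core subunits on the list, did not pass at -0.17 and -0.22. Of the 6 helicases and second-step factors DHX16, which drives the activated spliceosome towards catalysis, was the one that passed, from 34.3, 33.7 and 31.3 to 29.8, 27.4 and 28.3 TPM (-0.21 ± 0.0663, adjusted p = 0.0385). Between 62.1% and 90.6% of DHX16 TPM in these libraries is assigned to copies of the gene on alternate loci, and with the primary copy alone its change was 0.09 (adjusted p = 0.853).

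Lower values in every one of the 3 batches were found in 42 of 52 members, against 41% of all genes tested. In 34 of 52 members the groups did not overlap and TAOK2 siRNA was lower, against 29.9% of all genes tested. Summed over the 52 genes, TPM was 6607 to 6774 with control siRNA and 5787 to 5851 with TAOK2 siRNA. After each library was centred on its median gene, 7 members were lower, against 11.9% of all genes. These were SNRPA1, SF3B4, SNRNP70, SNRPA, U2AF2, BUD31 and PLRG1. The calls of SNRPG, SNRPC, SF3B5, PRPF4, PRPF6, PRPF31, PRPF19 and DHX16 ended there. With batch as a replicate block 21 members were lower, against 17.7% of all genes. With control siRNA replicate 1, 2 or 3 left out the count was 9, 9 or 13. With TAOK2 siRNA replicate 1, 2 or 3 left out it was 8, 6 or 9.

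**Figure D1:**
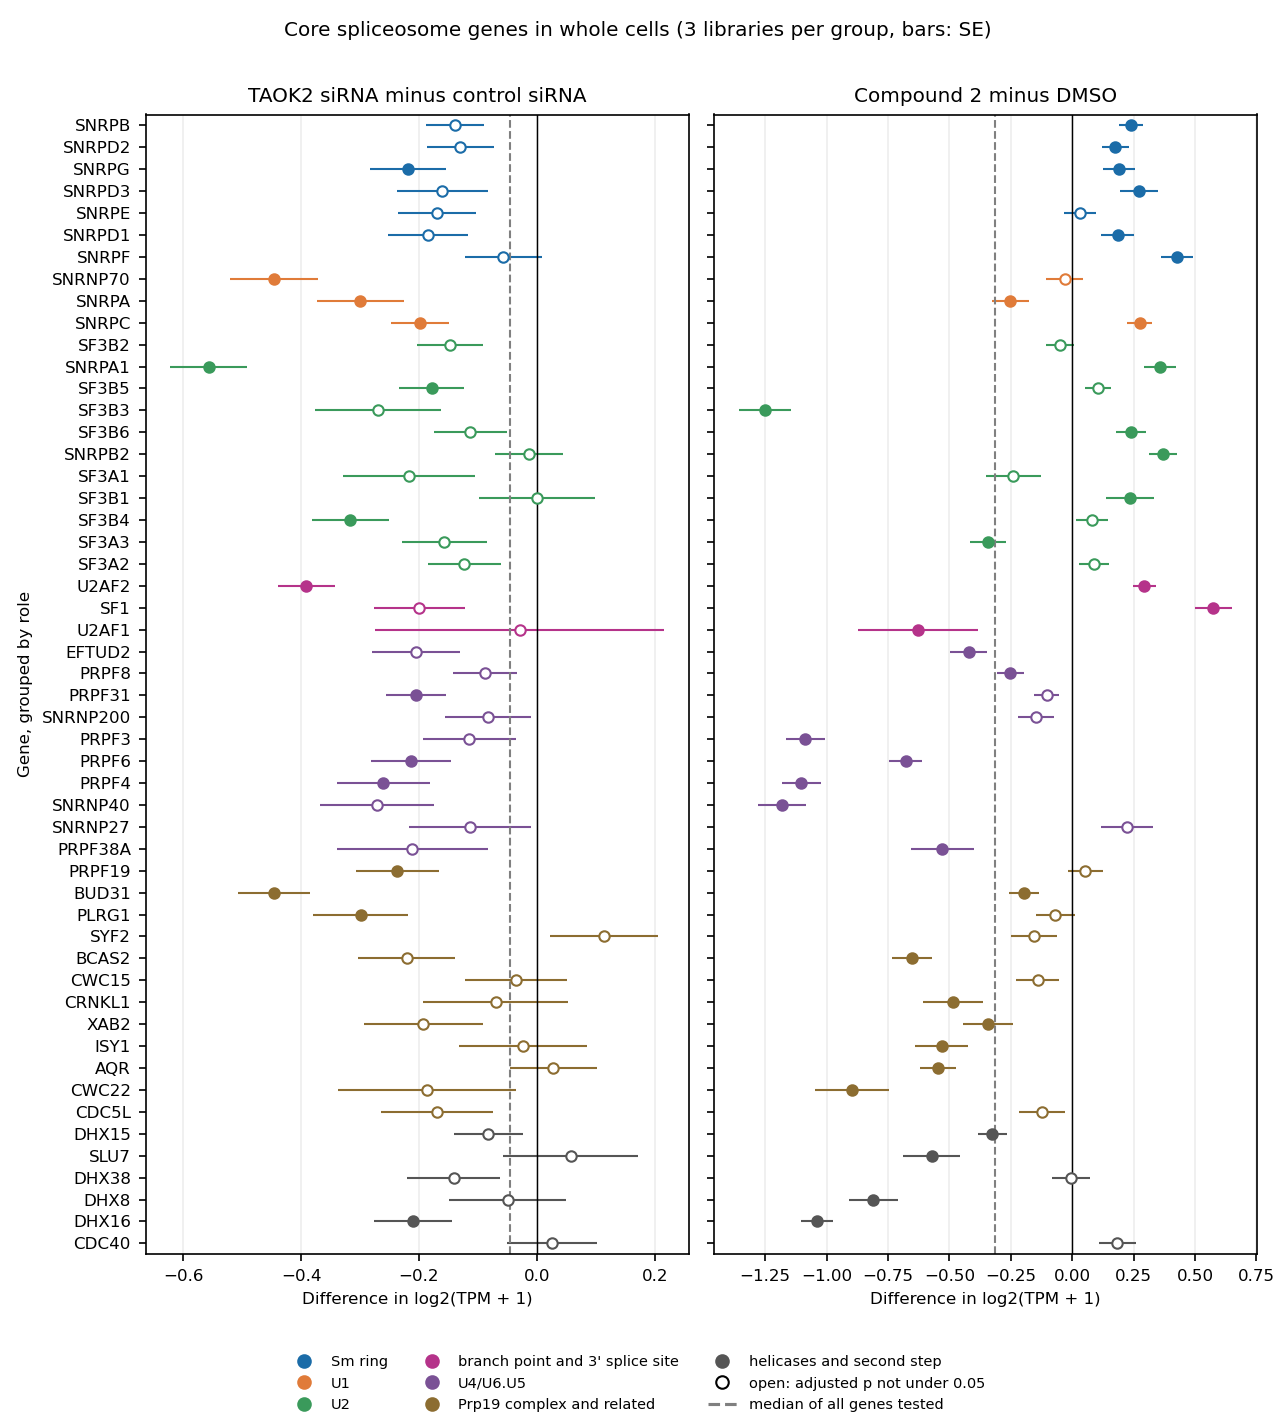
Difference in log2(TPM + 1) for each of the 52 genes, grouped by role, for TAOK2 siRNA against control siRNA (left) and compound 2 against DMSO (right). Points are estimates from 3 libraries per group, bars are moderated SE, filled points passed at adjusted p under 0.05 and the dashed line is the median of all genes tested. On the left 15 points are filled, all below 0, and on the right the Sm ring lies above 0 while most of the tri-snRNP, Prp19 and helicase genes lie below it.

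Compound 2 moved members in both directions. The Sm ring rose in 6 of 7 genes, SF1, U2AF2 and 4 of 11 U2 genes rose, and 7 of 10 tri-snRNP genes, 7 of 12 genes of the Prp19 group and 4 of 6 helicases and second-step factors fell with 0 rising. In all, 13 members rose and 22 fell. Over all 13197 genes tested 64% were called, 12.1% higher and 51.9% lower, and the median gene stood at -0.31. Relative to the median gene of each library 30 members were higher and 10 lower, against 32.7% and 31.3% of all genes. On that scale the Sm ring had 7 of 7 higher and U2 had 8 higher and 1 lower. The falls by role did not hold in the same way: the tri-snRNP had 3 higher and 4 lower, the Prp19 group 6 higher and 3 lower, and the helicases and second-step factors 2 higher and 2 lower. The uncentred shares that fell in these roles, 70% of the tri-snRNP, 58.3% of the Prp19 group and 66.7% of the helicases and second-step factors, stand beside the 51.9% of all genes that fell.

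SNRPF had the largest rise of the Sm ring, from 77.4, 79.7 and 81.9 TPM with DMSO to 102, 105 and 116 TPM with compound 2 (0.43 ± 0.0657, adjusted p = 9.38e-05). SNRPD3 went from 145, 131 and 163 to 178, 163 and 187 TPM (0.27 ± 0.0772, adjusted p = 0.00808). The lowest compound 2 library of SNRPD3 was just above the highest DMSO library. SNRPB, the most abundant member, went from 952, 949 and 984 to 1179, 1089 and 1138 TPM (0.24 ± 0.0486, adjusted p = 0.000868), with groups apart. SNRPE was the one gene of the ring that did not pass, at 0.03. Summed over the ring, TPM was 2052 to 2186 with DMSO and 2352 to 2526 with compound 2.

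SF1 rose most of all 52 members, from 165, 168 and 155 to 234, 276 and 223 TPM (0.58 ± 0.0768, adjusted p = 2.81e-05). U2AF2 rose from 384, 358 and 369.6 to 471, 457 and 436 TPM (0.29 ± 0.0484, adjusted p = 0.000165). U2AF1 moved the other way: summed with U2AF1L5 it went from 157, 167 and 186 to 67.6, 94.5 and 88.8 TPM (-1.03 ± 0.113, adjusted p = 5.31e-06). U2AF1 and U2AF2, which bind the same 3′ splice site side by side as a dimer, thus differed in direction.

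U2 was divided as well. SNRPA1 rose from 170.5, 163 and 178 to 239, 202 and 215 TPM (0.36 ± 0.0652, adjusted p = 0.000395) and SNRPB2 from 130.3, 126 and 126 to 164, 164 and 168 TPM (0.37 ± 0.0574, adjusted p = 0.000102). SF3B6, the small subunit at the branch adenosine, and SF3B1 rose by 0.24 and 0.24. The groups of SF3B6 were apart, while those of SF3B1 overlapped. SF3B1 stood at 109.9, 130.9 and 109.1 TPM with DMSO and at 126.2, 158.3 and 128.9 TPM with compound 2. SF3B3, the large scaffold subunit of the same complex, fell from 120.0, 121 and 140.2 to 46.8, 48.3 and 64.7 TPM (-1.25 ± 0.107, adjusted p = 5.59e-07), the largest fall of the 52, and SF3A3 changed by -0.34. In U1, SNRPC rose from 143, 142 and 146 to 177, 164 and 180.2 TPM (0.27), SNRPA fell by 0.25 and SNRNP70 did not pass at -0.03 (adjusted p = 0.742). Centred on the median gene, SNRPA was at 0.10 and SNRNP70 at 0.32, so both turn with the scaling.

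In the tri-snRNP the largest falls were in 2 genes of its U4/U6 part and 1 of its U5 part. PRPF3 went from 81.4, 71.1 and 73.1 to 34.1, 38.4 and 32.2 TPM (-1.09 ± 0.0793, adjusted p = 1.36e-07) and its partner PRPF4 from 57.3, 57.5 and 63.8 to 23.9, 29.2 and 28.7 TPM (-1.10 ± 0.0789, adjusted p = 1.15e-07). SNRNP40, a U5 protein, went from 39.3, 40.4 and 42.7 to 14.5, 20.1 and 18.04 TPM (-1.18 ± 0.0970, adjusted p = 3.79e-07). In each of these genes the highest compound 2 library lay well below the lowest DMSO library. PRPF6, PRPF38A, EFTUD2 (the GTPase of U5) and PRPF8 fell by smaller amounts, -0.68, -0.53, -0.42 and -0.25. PRPF31, SNRNP200 and SNRNP27 did not pass.

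In the Prp19 group CWC22, which helps place exon junction complexes, went from 25.9, 27.2 and 20.5 to 11.0, 16.7 and 10.8 TPM (-0.90 ± 0.151, adjusted p = 0.000205). BCAS2 went from 53.3, 53.1 and 50.5 to 29.6, 37.2 and 32.3 TPM (-0.65 ± 0.0823, adjusted p = 1.70e-05), and AQR, an intron-binding helicase, from 28.98, 28.98 and 29.5 to 17.9, 20.1 and 21.1 TPM (-0.55 ± 0.0734, adjusted p = 2.95e-05). PRPF19, CDC5L and PLRG1, the rest of the core, did not pass at 0.05, -0.12 and -0.07. Among the helicases DHX16 went from 35.1, 34.2 and 34.7 to 16.8, 15.6 and 16.6 TPM (-1.04 ± 0.0663, adjusted p = 4.40e-08). DHX8, which releases the spliced mRNA, went from 56.2, 50.4 and 54.7 to 29.02, 36.5 and 26.0 TPM (-0.81 ± 0.0996, adjusted p = 1.38e-05). DHX15, which takes the spent complex apart, changed by -0.32, close to the median gene (0.03 after centring), and DHX38 did not pass.

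In every batch 26 of 52 members were lower and 18 higher with compound 2, against 62.4% and 19.5% of all genes. Without overlap of the groups 22 members were lower and 14 higher, against 51.3% and 12.5% of all genes. Transcript length ran with the change: over the 52 members, Spearman's rho between the TPM-weighted transcript length and the compound 2 change was -0.50, against -0.19 over 13182 tested genes. It is a description, since the points share libraries and a TPM scale that itself contains length.

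**Figure D2:**
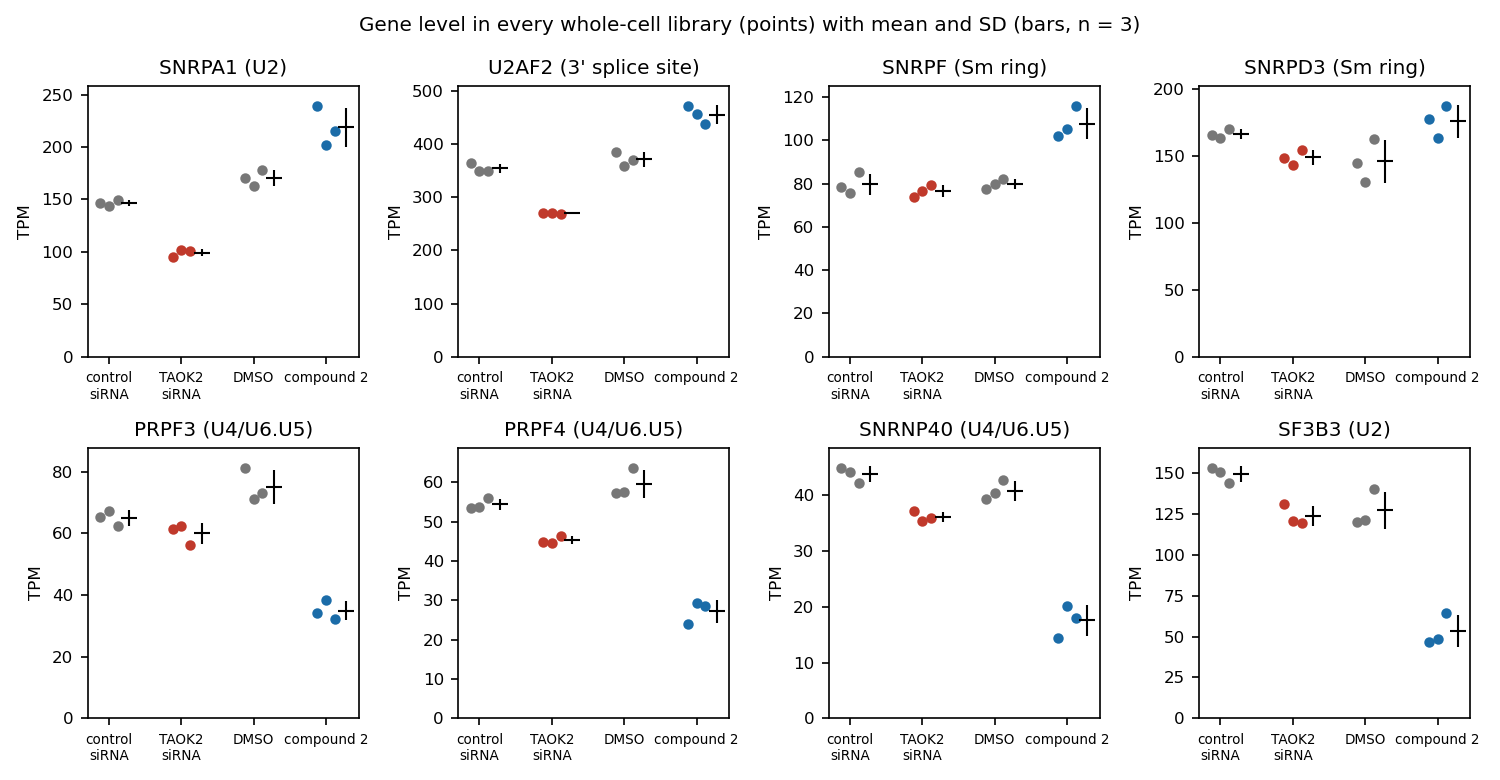
TPM in each of the 12 whole-cell libraries for SNRPA1, U2AF2, SNRPF, SNRPD3, PRPF3, PRPF4, SNRNP40 and SF3B3, with each axis from 0. Points are libraries and bars show the mean and SD of 3. SNRPA1 and U2AF2 are lowest with TAOK2 siRNA and highest with compound 2, and PRPF3, PRPF4, SNRNP40 and SF3B3 are lowest with compound 2.

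The change with TAOK2 siRNA and the change with compound 2 were compared in the same fit, as the difference of both differences. It passed in 30 of 52 members, 13 in which the knockdown value was higher and 17 in which it was lower, against 55.2% of all genes (42.8% and 12.4%). By role, it was lower in 6 of 7 Sm genes, 2 of 3 U1 genes and 5 of 11 U2 genes, and higher in 4 of 10 tri-snRNP genes, 4 of 12 of the Prp19 group (with 2 lower) and 4 of 6 helicases and second-step factors. The largest difference in the lower direction was SNRPA1 at -0.91 (adjusted p = 5.70e-06), and in the higher direction SF3B3 at 0.98 and PRPF3 at 0.97. Centred on the median gene the counts were 6 higher and 29 lower, against 27.2% and 27.3% of all genes. The lower calls of the Sm ring (7 of 7), U1 (3 of 3) and U2 (8 of 11) were found on that scale as well. The tri-snRNP had 3 higher and 3 lower, the helicases and second-step factors 2 and 2, and the Prp19 group 0 and 4, so the direction in these roles depends on the scaling. Of the 15 members that fell with TAOK2 siRNA, 5 also fell with compound 2 (BUD31, DHX16, PRPF4, PRPF6 and SNRPA), 4 rose with it (SNRPA1, SNRPC, SNRPG and U2AF2) and 6 did not pass.

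Between the controls, control siRNA against DMSO, limma called 0 of 52 members, against 6.48% of all genes. At an unadjusted p under 0.05 there were 11 members, a threshold at which all genes were not counted. With batch as a replicate block 4 members passed, SNRPD3 higher and SNRPA1, SYF2 and ISY1 lower, against 12.1% of all genes. After median centring 1 member passed, against 6.57% of all genes. SNRPA1 was thus lower with control siRNA (146, 144 and 149 TPM) than with DMSO (170.5, 163 and 178 TPM) as well.

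Transcripts within the members shifted with compound 2, at a lower rate than over all genes, and not detectably with TAOK2 siRNA. The share of each transcript in its gene was tested with limma on log2 odds in 135 transcripts of 41 members. With TAOK2 siRNA 0 passed, 13 had an unadjusted p under 0.05, and 0.0731% of all 38280 transcripts tested were called. The smallest p belonged to SNRNP70-206, a protein-coding form of the U1 gene, whose share went from 52.4, 54.4 and 53.1% with control siRNA to 39.1, 31.8 and 43.7% with TAOK2 siRNA (adjusted p = 0.156). Its groups were apart, though it did not pass.

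With compound 2, 40 of 135 member transcripts in 20 genes passed, 19 higher and 21 lower. These 29.6% stand below the 39.4% of all transcripts (23% higher and 16.4% lower). CWC22 had 2 coding forms: the share of the shorter, CWC22-201 of 2392 bases, rose from 45.2, 40.5 and 49.9% to 74.5, 66.5 and 72.6% of the gene (adjusted p = 8.03e-05), and the longer, CWC22-202 of 3280 bases, made up the rest. In TPM, CWC22-201 was at 10.98 ± 0.733 with DMSO and 9.07 ± 1.78 with compound 2, and CWC22-202 at 13.5 ± 3.00 and 3.79 ± 1.56 (SD, n = 3), so the lower level was that of the longer form. The share of SF3B1-201, the full-length form of 6526 bases, fell from 82.0, 75.3 and 75.3% to 56.0, 52.4 and 55.2% (adjusted p = 1.59e-05). Shares of shorter SF3B1 forms rose: SF3B1-211 went from 3.97% ± 0.363 to 11.3% ± 0.874 and the 141-base SF3B1-206 from 0.848% ± 0.523 to 6.74% ± 0.790 (SD, n = 3). So the rise of SF3B1 at the gene level came with a lower share of its full-length form. SF3B1-206 is shorter than the 150-base reads, so its share is uncertain. CDC40-202 went from 20.7% ± 1.73 to 38.8% ± 2.14, SYF2-202 from 9.86% ± 2.37 to 23.5% ± 4.79 and DHX8-202 from 45.0% ± 0.797 to 57.9% ± 2.93.

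Forms annotated as not coding (retained intron, nonsense-mediated decay or processed transcript) were set against coding forms in 38 members. With TAOK2 siRNA 0 passed, 4 had an unadjusted p under 0.05, and 0.269% of all genes were called. With compound 2 they rose in 8 and fell in 4 members. These are 31.6% of the members tested, below the 43.2% of all genes (25.8% higher and 17.4% lower). The log2 ratio rose by 2.21 ± 0.216 in SF3B1 and by 2.12 ± 0.246 in PRPF19, where the retained-intron form PRPF19-204 went from 0.840% ± 0.187 to 4.99% ± 1.29 of the gene. It changed by -1.10 ± 0.184 in SNRNP200. Without DMSO replicate 3 the count of 12 was 7.

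In the fractionation experiment, TAOK2 siRNA against control siRNA called 0 of 52 members in total, nuclear and cytoplasmic RNA by limma. At an unadjusted p under 0.05 there were 1, 3 and 3 members, all lower. Over all genes the shares called at an adjusted p under 0.05 were 0%, 0.0144% and 0%, and no share was counted at the unadjusted threshold. The 15 members that fell in whole cells had medians of -0.08 in total, 0.09 in nuclear and -0.03 in cytoplasmic RNA, with 10, 7 and 10 of 15 below 0. Fractions of a batch may share their cells, so they are not taken as independent of each other.

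BUD31 was the one member with an unadjusted p under 0.05 in all 3 kinds of RNA. In total RNA it stood at 196 and 221 TPM with control siRNA and 129 and 139.7 TPM with TAOK2 siRNA (-0.63 ± 0.130, adjusted p = 0.194). In nuclear RNA it stood at 47.1 and 51.8 TPM with control siRNA against 36.9 and 37.6 TPM (-0.40), and in cytoplasmic RNA at 193 and 190.4 TPM against 129.9 and 134 TPM (-0.54). No library with TAOK2 siRNA reached a control library of the same RNA. With batch as a replicate block BUD31 passed in each (adjusted p = 0.0141, 0.0438 and 0.022), as the 1 member called in total and in cytoplasmic RNA. In nuclear RNA the block called PRPF3 as a second member, at 260.2 and 279 TPM with control siRNA and 175 and 197 TPM with TAOK2 siRNA (adjusted p = 0.021). The block called 2.6%, 6.05% and 2.89% of all genes in these comparisons.

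Nuclear and cytoplasmic RNA divided the members. With control siRNA 6 of 7 Sm genes were lower in nuclear RNA, and 4 of 10 tri-snRNP genes and 3 of 6 helicases and second-step factors were higher. With control siRNA 15 members were higher in nuclear RNA and 14 lower, against 48.9% of all 13863 genes tested (29.9% higher and 19% lower). The 40% of the tri-snRNP that was higher is read beside the 29.9% of all genes. SNRNP27 of the tri-snRNP was at -1.09 (adjusted p = 0.0809) and lower with TAOK2 siRNA at -1.52 (adjusted p = 0.0255). With batch as a replicate block 26 were higher and 18 lower, against 68.5% of all genes (40.7% and 27.8%). Centred on the median gene, itself at 0.22, the counts were 12 and 18, against 24.5% and 24.8% of all genes. Over coding transcripts alone the counts were 8 and 17. The share of all genes was not counted there, so these 2 counts are not read as particular to the members. Mitochondrial RNA, summed over 6 genes, took 234455 to 272526 TPM of the nuclear control libraries and 64823 to 65435 TPM of the cytoplasmic ones, and its part in these differences was not tested.

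SNRPG, at 620 bases the shortest member by weighted length, stood at 86.2 and 74.7 TPM in nuclear and 404 and 351 TPM in cytoplasmic RNA (-2.22 ± 0.150, adjusted p = 2.03e-05). SNRPD2 stood at 189.6 and 164 TPM against 815 and 789.6 TPM (-2.18 ± 0.158, adjusted p = 2.63e-05), and SNRPE at 66.5 and 62.5 TPM against 215 and 182 TPM (-1.60). Small members outside the ring lay with it: SF3B5 at -1.99, BUD31 at -1.93, SF3B6 at -1.74 and SNRPC at -1.24. None of these genes had overlapping fractions.

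PRPF3 was the most nuclear member, at 260.2 and 279 TPM in nuclear and 27.0 and 29.8 TPM in cytoplasmic RNA (3.20 ± 0.152, adjusted p = 8.17e-06). SF1 stood at 453 and 547 TPM in nuclear against 98.6 and 82.5 TPM in cytoplasmic RNA (2.45 ± 0.189, adjusted p = 3.37e-05). These values sum all forms of a gene, coding or not. Forms annotated as not coding made up a mean of 90.14% of SF1 TPM in nuclear and 65.51% in cytoplasmic control RNA. Among the helicases DHX38, which acts between the catalytic steps, was at 2.13, DHX16 was at 1.74 and DHX15 at 1.59. SF3B1, SNRNP200, EFTUD2 and AQR were higher in nuclear RNA as well, at 1.81, 1.68, 1.20 and 1.29. SNRNP70 passed with a wide error, at 205 and 89.6 TPM in nuclear and 54.2 and 28.4 TPM in cytoplasmic RNA (1.76 ± 0.631, adjusted p = 0.0456). That call was lost after centring, and with TAOK2 siRNA SNRNP70 did not pass (adjusted p = 0.073). Forms annotated as not coding made up a mean of 72.02% of SNRNP70 TPM in nuclear and 15.99% in cytoplasmic control RNA. In DHX16 these shares were 0.709% and 0.276%, but they cover the primary copy of the gene alone. Between 60.6% and 83.4% of DHX16 TPM in the fractionation libraries is assigned to alternate loci and has no type here.

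Member transcript length was weighted by TPM of the whole-cell controls, not of the fractions. Over the 52 members Spearman's rho between the nuclear minus cytoplasmic difference and that length was 0.77, against 0.15 over 13818 tested genes. With TAOK2 siRNA the values were 0.80 and 0.21, and 19 members were higher and 15 lower in nuclear RNA, against 45.4% of all genes (28.7% and 16.7%). The effect of TAOK2 siRNA on the ratio passed in 0 members and in 0% of all genes by limma, with 0 members at an unadjusted p under 0.05. Its median over the members was 0.21, against 0.02 over all genes, whose quartiles were -0.20 and 0.20. The members' median change with TAOK2 siRNA was uneven between batches. In cytoplasmic RNA it was -0.22 in batch 1 and -0.07 in batch 2, and in nuclear RNA 0.02 and 0.07.

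**Figure D3:**
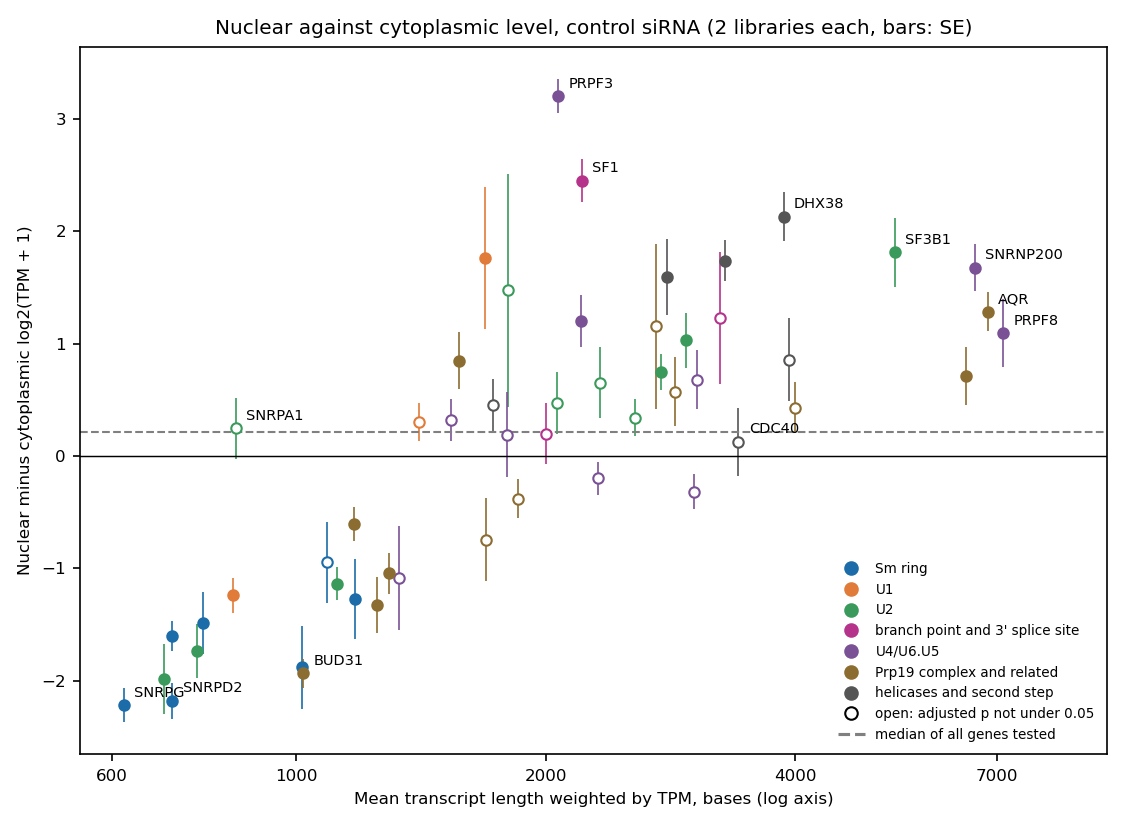
Nuclear minus cytoplasmic log2(TPM + 1) of the 52 genes with control siRNA against the mean transcript length of each gene on a log axis. Lengths were weighted by TPM in the whole-cell controls. Points are estimates from 2 libraries per fraction, bars are moderated SE, filled points passed at adjusted p under 0.05 and the dashed line is the median of all genes tested. SNRPG and SNRPD2 lie lowest, near -2.2, followed by SF3B5 and BUD31, and PRPF3 lies highest at 3.20.

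The forms of a gene differed between the fractions as well. Of 182 member transcripts in 46 genes, 65 in 32 genes passed with control siRNA, 44 with a higher share in nuclear RNA and 21 with a lower one, against 36% of all transcripts (20.5% and 15.5%). The main coding form lost share in nuclear RNA in SNRNP40 (SNRNP40-201, from 92.4% ± 5.37 to 38.8% ± 1.75), PRPF3 (PRPF3-201, from 74.97% ± 2.35 to 28.8% ± 2.30) and DHX15 (DHX15-201, from 83.8% ± 4.34 to 41.7% ± 8.29), each given as cytoplasmic and then nuclear with SD and n = 2. SNRNP70-206 was at 0.294 and 0% of its gene in the nuclear libraries and at 31.3 and 41.7% in the cytoplasmic ones. Against coding forms, forms annotated as not coding were higher in nuclear RNA in 21 of 39 members and lower in 0, against 57.2% of all genes (55.7% and 1.58%). SNRPF (6.25 ± 0.649), PRPF8 (4.43 ± 0.446) and PRPF19 (3.78 ± 0.439) were among the largest of these log2 ratios.

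SNRPA1 gives the form in full. Its transcript SNRPA1-205 keeps introns 5 and 6 of the 8 introns of SNRPA1-201, at chr15:101286294-101286907 and chr15:101285802-101286213 (GRCh38, GENCODE 29, minus strand). It made up 33.9 and 25.8% of the gene in nuclear and 0.399 and 0.419% in cytoplasmic control RNA (adjusted p = 5.71e-05). With TAOK2 siRNA it made up 21.9 and 22.3% of the gene in nuclear RNA, below both control libraries, without passing (adjusted p = 1). The splice sites of these introns are printed because they bound the sequence that the nuclear form keeps. They are shown with 8 bases of exon and 20 of intron each, and the GT or AG at the end of the intron in capitals.
SNRPA1 intron 5, 5′ splice site: aactaaaaGTaagtagtaatctgttgct
SNRPA1 intron 5, 3′ splice site: tgtgtgtggtgtcgctgtAGgagcgtca
SNRPA1 intron 6, 5′ splice site: agcaaaacGTaagacacggatatccaac
SNRPA1 intron 6, 3′ splice site: atgttcttccccctcttaAGttttaatc
Both introns begin with GT and end with AG. They are 614 and 412 bases long.

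Summed over the 52 genes, retained-intron forms made up 23.9% and 23.4% of nuclear TPM with control siRNA, 20.4% and 19.2% with TAOK2 siRNA, and 7.25% and 4.85% of cytoplasmic TPM with control siRNA. The nuclear libraries with TAOK2 siRNA were below both control libraries. Over all protein-coding genes the nuclear share was 9.55% ± 0.652 with control siRNA and 7.87% ± 0.485 with TAOK2 siRNA (SD, n = 2), so the total moved the same way. Transcript usage in nuclear RNA passed for 0 of 182 member transcripts and 0% of all transcripts between the siRNAs by limma, with 7 at an unadjusted p under 0.05.

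**Figure D4:**
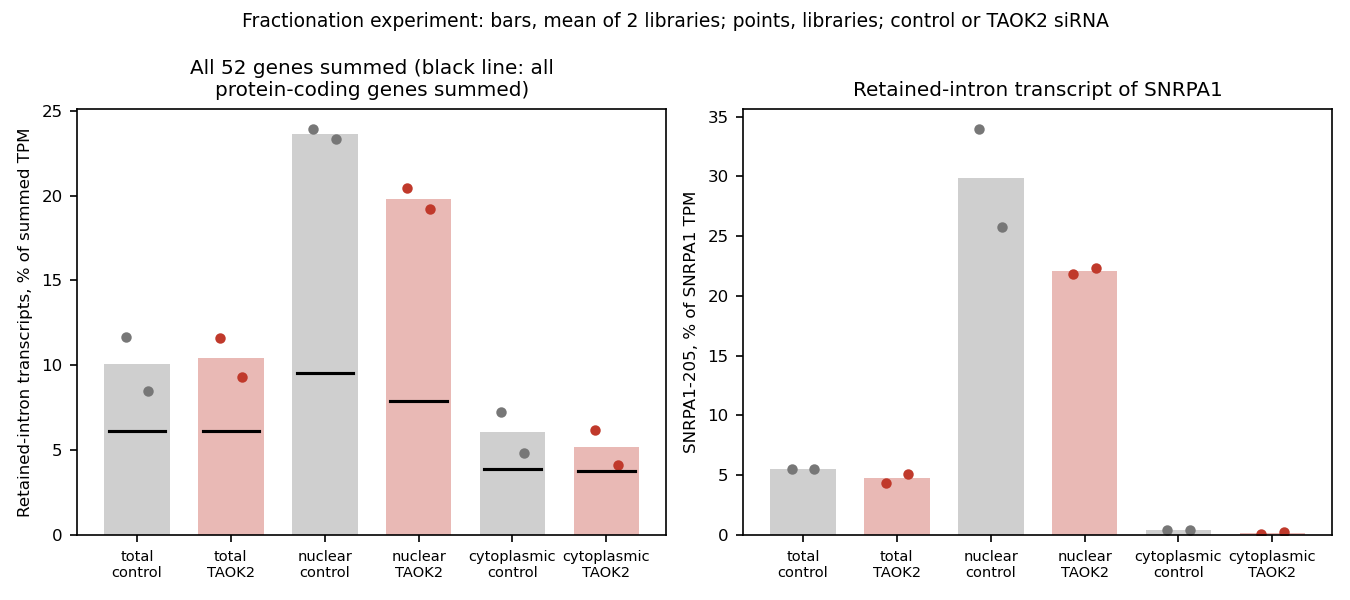
Left, retained-intron forms as percent of the summed TPM of the 52 genes in each fractionation group, with the same share over all protein-coding genes as a black line. Right, SNRPA1-205 as percent of SNRPA1. Bars are means of 2 libraries, points are libraries, and both axes start at 0. The nuclear groups are highest in both panels, and the nuclear TAOK2 siRNA libraries lie below the nuclear control libraries.

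Beyond the 52, a list of 78 other spliceosome genes (snRNP assembly factors, LSM proteins, U1 auxiliary and further tri-snRNP, Prp19 and step factors) was described in the same way. With TAOK2 siRNA in whole cells 17 fell and 0 rose, with a median of -0.15, against 14.5% of all genes lower and 7.85% higher. These 17 are 21.8% of the list, and centring gave 2 higher and 12 lower, against 9.81% and 11.9% of all genes. The smallest p-values were those of GEMIN2, PRMT5 and SMNDC1, at -0.48, -0.32 and -0.39. GEMIN2 is a partner of the SMN protein, which loads Sm rings onto snRNAs, and PRMT5 methylates Sm proteins before that step. With compound 2, 15 rose and 42 fell, with a median of -0.22. The 53.8% that fell is near the 51.9% of all genes. Centring gave 35 higher and 22 lower, against 32.7% and 31.3% of all genes. The smallest p-values were those of the SMN-complex genes GEMIN7, GEMIN6 and GEMIN2, at -1.74, -1.78 and -1.06. Of 17 snRNP assembly genes 13 fell and 2 rose, and after centring 9 were lower and 4 higher, read beside the same shares of all genes. Between nuclear and cytoplasmic RNA 25 were higher and 18 lower (32.1% and 23.1% of the list, against 29.9% and 19% of all genes), with the smallest p-values in LSM3, PPIL1 and UBL5, all lower in nuclear RNA at -2.04, -1.89 and -2.16.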

How the data were processed

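The submitters' processing notes name kallisto, without a version, and GRCh38.p14. The authors deposited TPM per transcript in a table for each experiment. Transcripts were joined to GENCODE 29 and TPM summed per gene, with copies on alternate loci included. Low genes (mean below 1 TPM in a table) were dropped, and the rest entered limma 3.58.1 in R 4.3.3 on log2(TPM + 1), with group means, all 12 libraries sharing the spread, and eBayes with trend and robust settings. P-values were adjusted by Benjamini-Hochberg over all genes and called under 0.05. Counts at an unadjusted p under 0.05 were made for listed genes and their transcripts alone, so no share of all genes stands beside them. A fold change on this scale understates the change of low genes.

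Transcript shares were tested as log2 odds (0.5 TPM added, genes of at least 5 TPM, transcripts of at least 5%), and types likewise. Shares and types used transcripts of the primary assembly alone, without copies on alternate loci. The labels give a batch for each library, so batch served as the replicate block. Residuals correlated above 0.1 in 15 of 15 distinct same-batch pairs of fractionation groups and in 12 of 18 same-batch pairs of whole-cell libraries. Scripts were tested on simulated data. All 52 members could be named by the rule. For other spliceosome genes, those named have the smallest p-values. The members and lists were chosen with earlier results of these data known. The labels describe transfection in triplicate, while the fractionation groups hold 2 libraries each. Alternatives were another pseudocount, no filter, median centring, coding transcripts alone, the block and leaving out each library. The primary assembly alone and U2AF1 summed with U2AF1L5 were added after seeing the data.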

Additional observations from a re-analysis of the deposited data

How the results depend on the processing

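The pairing by batch raised several counts of members. With batch as a replicate block the count was 4 for control siRNA against DMSO, 1, 2 and 1 for TAOK2 siRNA in total, nuclear and cytoplasmic RNA, and 44 for nuclear against cytoplasmic RNA. With TAOK2 siRNA in whole cells the count of 15 was 9 with no filter on low values, 7 after median centring, and 6 to 13 with 1 library left out. Centring gave 1 call between the controls. The count of 12 members with a changed ratio of non-coding forms under compound 2 was 7 to 11 with 1 library left out. The 63 single-gene results checked this way are not all members in all comparisons. Calls lost with the direction kept were 10 on centring, 8 with no filter and 4 over coding transcripts alone. With 1 library left out this occurred 44 times. Results that reversed in direction are not in these counts and are given below. The cause of the losses was not tested.

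Some directions reversed. For TAOK2 siRNA, U2AF1 was at 0.00671 after centring, 0.0140 summed with U2AF1L5, and from -0.187 to 0.159 with 1 library left out (0.0979 without control siRNA replicate 1), and DHX16 at 0.0938 over coding transcripts and over the primary assembly. For compound 2, SNRPA was at 0.101, SNRNP70 at 0.321 and DHX15 at 0.0276 after centring, and SNRNP70 ranged from -0.0546 to 0.00362 with 1 library left out, the highest without compound 2 replicate 3. For nuclear against cytoplasmic RNA, U2AF1 was at -0.258 summed with U2AF1L5. U2AF2 was at -0.0125 after centring, -0.0528 over coding transcripts, and -0.105 to 0.503 with 1 library left out, the lowest without nuclear control replicate 1. TPM keep no depth, so no counting error can be given for members near 1 TPM.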
